A study of Danio rerio with 16 samples.

Results

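The 121 ATAC-seq peaks described here are differential peaks named for a cadherin, protocadherin, claudin, integrin, catenin or another gene of cell junctions. A peak is named for the gene of the nearest start site as annotated, also where it lies inside another gene. They were chosen by gene symbol alone from 9466 peaks listed as differentially open between DP-R1hi and DP-R1lo cells, and they belong to 43 genes. The symbols also brought in cldnd1a, which encodes a claudin domain protein, itgb1bp1, whose product binds the tail of integrin beta, and ctnnal1, a relative of the alpha-catenins. ATAC-seq reads out where chromatin is open, since the Tn5 transposase inserts its adapters there.

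All cells came from zebrafish embryos labelled wild type at 28 to 30 hpf that carried TgBAC(runx1P2:Citrine), in which the runx1 regulatory region drives Citrine, and Tg(kdrl:mCherry), in which the endothelial kdrl promoter drives mCherry. DP-R1hi cells (mCherry-positive, Citrine high) were sorted as haemogenic endothelium (HE) of the aortic floor, and DP-R1lo cells (mCherry-positive, Citrine low) as aortic roof endothelium (ARE) with sprouting inter-somitic vessels. Citrine is stable and is carried over from earlier stages, so that the gates separate levels of a reporter and not cell types as such. The series holds 16 libraries, namely 3 of each of 5 sorted populations and 1 of genomic DNA. Between 2000 and 3000 cells of pooled embryos went into a sorted library, and the authors left out 1 replicate of DP-R1hi and 1 of DP-R1lo, so that each mean rests on 2 libraries. DN, SP-kdrl and DP-R1med were not analysed here.

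The lists give for each peak the authors' mean of normalized reads in DP-R1hi and in DP-R1lo on a log2 scale, with no value per replicate. Neither the replicate spread nor the depth of a library is therefore known, and the values below are given without error and without a test. A difference is the DP-R1hi mean minus the DP-R1lo mean, in log2 units, and every listed peak had passed the authors' test and their filter of 0.7. The lowest listed mean was -0.14 for DP-R1hi (0.908 normalized reads) and -0.27 for DP-R1lo (0.829 normalized reads). Where a population was at this value, the difference is read as a lower bound. Ranks of differences below are therefore ranks of the listed values only. A lower mean can come from fewer cells with open chromatin or from a less open site in each cell, and these cannot be told apart. Genes were assigned to peaks by distance to the start site, and a peak may lie in or act on another gene. Positions are those of the GRCz10 assembly as the lists give them.

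The labels of both populations were set beside marker genes. The paper had placed the DP-R1hi gate where haemogenic marker genes were most enriched, and cmyb and gfi1aa were among those it measured. The marker lists were also made with earlier results of these data known. The counts below are therefore no independent check of the labels. Of 7 symbols of HE markers, in which myb also stands under its older name cmyb, myb, gfi1aa and gfi1ab had listed peaks, and all 6 of these were more open in DP-R1hi, whereas runx1, gata2b, dnmt3bb.1 and the symbol cmyb had none. Of 7 genes taken as ARE markers, dll4, efnb2a, hey2, dlc, vegfc and kdrl had listed peaks, and tbx20 had none. Of these peaks, 19 were more open in DP-R1lo and 3 in DP-R1hi. The gene kdrl gave 5 of the 19, but the paper counts it as endothelial in general. Its reporter was used to sort both populations, so that it does not set ARE apart from HE. The peaks of hey2 were split, 2 and 2. Among 12 markers of other cells, 5 had listed peaks (pdgfra, nr2f2, elavl3, col2a1a and gata1a), with 8 more open in DP-R1lo and 2 in DP-R1hi. The venous gene nr2f2 gave 5 of the 8 and 1 of the 2, and the other genes had 1 peak each. All these marker counts stand beside 59.2% of all listed peaks that were more open in DP-R1lo. The part of other cells in the differences below was not tested.

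Cells of a vessel wall hold together through adherens junctions, in which cadherins bind each other across the gap and connect to actin through catenins, and through tight junctions built from claudins, occludin and immunoglobulin proteins. Integrins, pairs of an alpha and a beta chain, fasten the same cells to the matrix beneath. In the embryonic aorta these contacts matter because haemogenic cells later loosen them and leave the wall as blood progenitors.

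Peaks of adhesion genes were mostly more open in DP-R1lo. Of the 121 peaks, 88 (72.7%) were more open in DP-R1lo and 33 (27.3%) in DP-R1hi, beside 59.2% more open in DP-R1lo over all listed peaks (3864 of 9466 were more open in DP-R1hi). All peaks were more open in DP-R1lo at 18 of the 43 genes (41.9%, beside 45.9% of all genes with a listed peak) and in DP-R1hi at 5 genes (11.6%, beside 34.8%). The other 20 genes had peaks of both directions. This was 66.7% of the 30 genes with at least 2 peaks, beside 45.1% over all genes with at least 2 listed peaks. Adhesion genes had 2.81 listed peaks each on average, beside 1.83 over all genes, and a gene with more peaks has more chances to hold both directions.

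Where DP-R1lo was more open, the median difference was 4.51, beside 3.90 over all listed peaks of that direction. The lowest DP-R1hi value was given at 43 of these 88 peaks (48.9%, beside 36.6%), and the median level in DP-R1lo was 5.66, beside 5.93. Nearly all of the normalized reads at those 43 sites were thus in DP-R1lo. Protocadherins gave 18 of the 43. By class the share ran from 14.3% for beta integrins, with itgb1bp1 counted among them, to 75% for claudins, with cldnd1a counted among them. At the genes of endothelial junctions described below, nectins not counted, 7 of 18 such peaks (38.9%) were at the lowest DP-R1hi value. Their median difference toward DP-R1lo was 3.72, so that these 2 traits were not shared by all adhesion genes. Where DP-R1hi was more open, the median difference was 2.60, beside 2.70, and the lowest DP-R1lo value was given at 5 of 33 peaks (15.2%, beside 18.8%). A difference of at least 2 was seen at 98 of the 121 peaks (81.0%, beside 76.0%). Without the 48 peaks at a lowest value the share more open in DP-R1hi was 38.4%, beside 46.9% of all listed peaks treated in the same way. The median difference toward DP-R1lo was then 2.91, beside 2.83. The plot of the levels in both populations shows the row of adhesion peaks along the lowest DP-R1hi value, and also that weak sites were listed only where the difference was large.

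**Figure D1:**
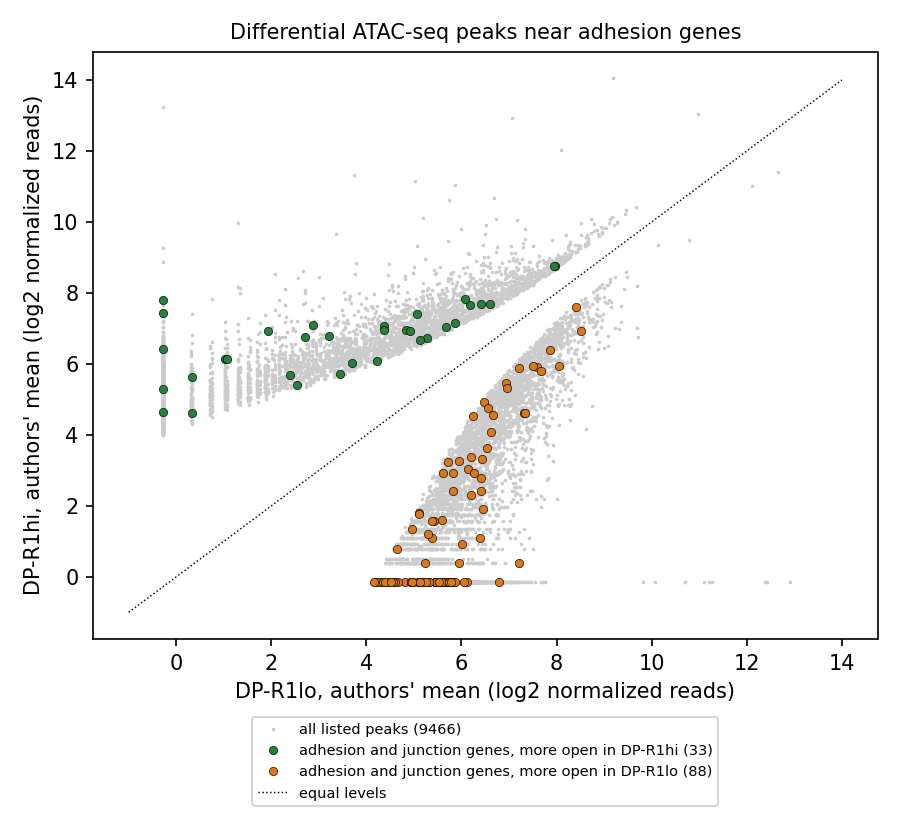
Each point is 1 differential peak, with the authors' mean in DP-R1lo on the x axis and in DP-R1hi on the y axis (log2 normalized reads). Grey points are all 9466 listed peaks, green points the 33 adhesion peaks more open in DP-R1hi and orange points the 88 more open in DP-R1lo, of which 43 lie in the row at -0.14.

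The counts per gene class are to be read beside the 59.2% of all listed peaks that were more open in DP-R1lo. Cadherins had 3 peaks more open in DP-R1hi and 21 in DP-R1lo, protocadherins 9 and 26, alpha integrins 3 and 9, beta integrins 2 and 7, catenins 3 and 6, and the immunoglobulin proteins of junctions 5 and 13. The classes follow the symbols, so that beta integrins include itgb1bp1 (0 peaks more open in DP-R1hi and 3 in DP-R1lo). Claudins likewise include cldnd1a (1 and 2), and catenins include ctnnal1 (0 and 1). The 3 itgb1bp1 peaks, and the 2 of itgb1a more open in DP-R1lo, lay in introns of other genes. Apart from these, the beta integrins had 1 peak each of itgb3b and itgb5 more open in DP-R1lo, beside 2 more open in DP-R1hi. The share more open in DP-R1lo was 87.5% for cadherins, 74.3% for protocadherins and 66.7% for the 9 catenin peaks. Occludin and tight junction scaffolds were even, with 2 peaks each way. Claudins alone had more peaks in the DP-R1hi list, 6 against 4, but with 4 further peaks that carry a claudin name in the current annotation the counts were 6 and 8.

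**Figure D2:**
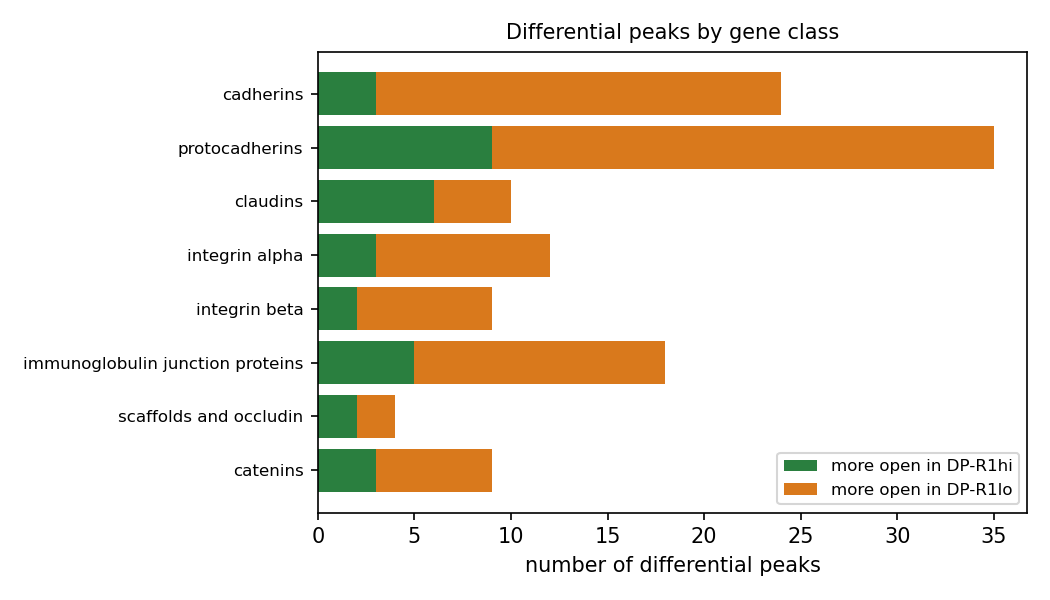
Bars give the number of differential peaks per class of adhesion gene, in green those more open in DP-R1hi and in orange those more open in DP-R1lo. Peaks count for the gene they are named for, also where they lie inside another gene. Orange is the longer part in 6 of 8 classes, the parts are equal for scaffolds and occludin, and green is the longer part for claudins.

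Of 26 names of endothelial junction genes, 8 had listed peaks and 18 had none under the name used. The names included nectins, which the lists give under older symbols, so that nectin peaks are not counted here. The nectin pvrl1b had 2 peaks more open in DP-R1hi and 2 in DP-R1lo, pvrl2l 2 and 1, and pvrl3b 1 and 1. With them the shares toward DP-R1lo given next would be lower. Among the 8, cdh5, pecam1, esama, jam3b and tjp2b had peaks in the DP-R1lo list only (62.5%, beside 45.9% of all genes with a listed peak). Of the 23 peaks of the 8 genes, 18 (78.3%) were more open in DP-R1lo, beside 59.2% of all listed peaks. The gene cdh5 encodes VE-cadherin, the cadherin of endothelial adherens junctions. Its promoter on chromosome 7 (44105708 to 44106628) was open in both populations, with a mean of 5.93 in DP-R1hi (61 normalized reads) and 8.05 in DP-R1lo (265 normalized reads), 2.12 higher in DP-R1lo. A cdh5 peak 5111 bp upstream of the start site (44100924 to 44101594) had 1.09 in DP-R1hi and 6.38 in DP-R1lo. A peak in intron 1 of 12 of cdh5 (44108032 to 44108317) was weaker, with 4.26 in DP-R1lo and the lowest value in DP-R1hi. The promoter of cdh5 thus had 61 normalized reads in DP-R1hi, while the flanking peaks were at 2.13 and 0.908 normalized reads there.

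The gene pecam1, whose product sits at contacts between endothelial cells, had a single listed peak, at its promoter on chromosome 3 (59491719 to 59492085). It had 2.94 in DP-R1hi and 5.82 in DP-R1lo, a difference of -2.88. The gene esama encodes a tight junction protein selective for endothelial cells. Both of its peaks lay in intron 1 of 6, far inside the gene at 45.2 and 52.7 kb from the start site. The nearer esama peak had 5.88 in DP-R1hi and 7.21 in DP-R1lo and the farther 4.07 and 6.62, so that neither was at the lowest value in DP-R1hi.

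All 6 jam3b peaks were more open in DP-R1lo, and of the adhesion genes only pcdh19 had as many peaks of 1 direction. Of 21 adhesion genes with at least 3 listed peaks, 6 had peaks in the DP-R1lo list only. Over all genes this held for 320 of 1004. The gene jam3b encodes a junctional adhesion molecule, which in zebrafish also acts in the fusion of muscle precursors. The jam3b promoter on chromosome 21 (24948154 to 24948634) had 3.32 in DP-R1hi (9.99 normalized reads) and 6.44 in DP-R1lo (86.8 normalized reads). Within intron 1 of 8 of jam3b, 4 peaks lay between 17.5 and 25.6 kb from the start site, with 5.38 to 5.95 in DP-R1lo. The first pair, at 17.5 and 20.5 kb, was at the lowest value in DP-R1hi, whereas the others had 3.26 and 1.56 there. A further jam3b peak 152 kb upstream was also at the lowest value in DP-R1hi and had 5.46 in DP-R1lo.

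Tight junction genes were mixed. The only listed peak of cldn5a, a zebrafish counterpart of the main claudin of endothelium in mammals, was more open in DP-R1hi (chromosome 8, 4661700 to 4662688), with 7.69 in DP-R1hi and 6.59 in DP-R1lo. It is a strongly open site in both populations, and its difference of 1.10 was among the smaller ones. For oclna, which encodes occludin, the promoter on chromosome 10 (2915603 to 2916073) had 6.67 in DP-R1hi (102 normalized reads) and 5.12 in DP-R1lo (34.8 normalized reads). An oclna peak in intron 4 of 8 went the same way, with 6.96 and 4.36, while the peak 7503 bp upstream went the other way, with 2.78 in DP-R1hi and a mean 3.62 higher in DP-R1lo. The 3 sites of oclna within 10 kb of its start site thus differed in both directions. The single tjp2b peak, in intron 1 of 8 of this gene of a tight junction scaffold, was at the lowest value in DP-R1hi and had 4.52 in DP-R1lo. No peak was listed for cldn5b, the claudin gene that the paper counts as arterial. None was listed for tjp1a or tjp1b either, and nothing follows from this about the accessibility of any of them.

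The gene ctnna1 encodes the alpha-catenin that ties cadherins to actin, and it had 2 peaks more open in DP-R1hi and 4 in DP-R1lo. Its promoter on chromosome 24 (34794422 to 34794915) had 5.46 in DP-R1hi and 6.93 in DP-R1lo, a difference of -1.47. On either side of it, a peak 14.1 kb upstream (7.67 in DP-R1hi and 6.17 in DP-R1lo) and a peak in intron 6 of 17 (6.15 and 1.03) were more open in DP-R1hi. The intron 6 peak of ctnna1 held 71 normalized reads in DP-R1hi and 2.04 in DP-R1lo. Peaks 215 and 237 kb upstream of ctnna1 were at the lowest value in DP-R1hi, with 5.11 and 5.31 in DP-R1lo, and a peak in intron 16 of 17 had 1.79 and 5.10. The ctnna1 sites nearest to the promoter thus went in the direction opposite to the promoter itself, and the far ones in its direction.

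**Figure D3:**
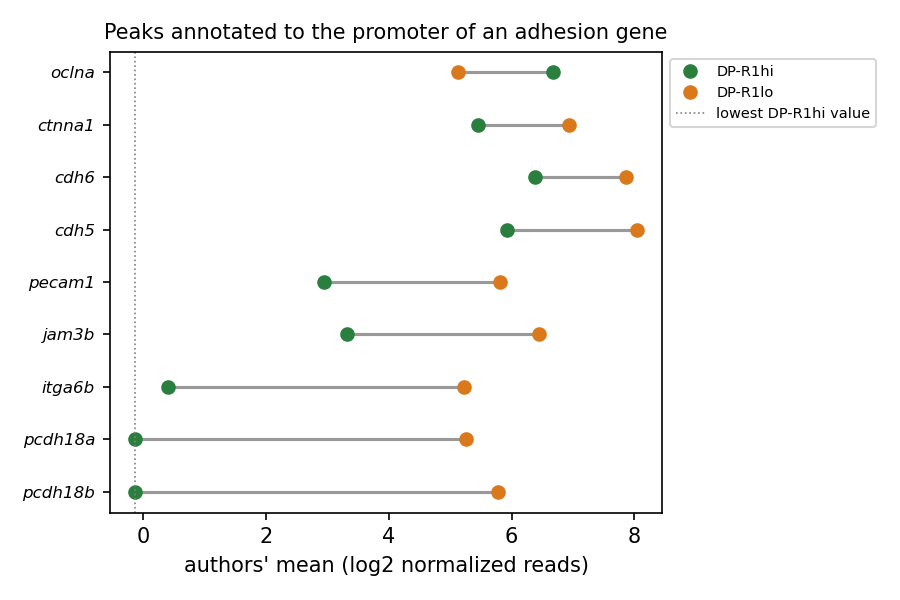
For the 9 peaks annotated to the promoter of an adhesion gene, green points give the authors' mean in DP-R1hi and orange points that in DP-R1lo (x axis, log2 normalized reads). The orange point is to the right in 8 of 9 promoters and the green one for oclna, and the DP-R1hi means of pcdh18a and pcdh18b lie on the lowest value.

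Promoters repeated this direction. Of the 9 peaks annotated to the promoter of an adhesion gene, 8 were more open in DP-R1lo, beside 52.0% of all 506 listed promoter peaks. The promoters of pcdh18a (chromosome 1, 12584140 to 12584471) and pcdh18b (chromosome 14, 41804828 to 41805233) were at the lowest value in DP-R1hi, with 5.25 and 5.78 in DP-R1lo. These are duplicate genes of a protocadherin outside the gene clusters. The promoter of itga6b, which encodes the alpha chain of a laminin receptor (chromosome 1, 30215103 to 30215599), had 0.40 in DP-R1hi (1.32 normalized reads) and 5.23 in DP-R1lo (37.5 normalized reads). By contrast the promoter of cdh6 (chromosome 2, 28446394 to 28446996) was open in both, with 6.38 in DP-R1hi and 7.86 in DP-R1lo. The promoters of cdh5, cdh6 and ctnna1 were thus open in both populations, and those of itga6b, pcdh18a and pcdh18b lay at or near the lowest value in DP-R1hi.

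Of the other cadherins, cdh6, cdh15, cdh7 and cdh4 had peaks in the DP-R1lo list only. For cdh6, a classical cadherin of the second type, the 3 further peaks lay 3.54, 48.9 and 87.7 kb upstream. The first cdh6 peak had 0.40 in DP-R1hi and 5.94 in DP-R1lo, the second the lowest value and 5.44, and the third 5.92 and 7.58. All 4 peaks of cdh15, the cadherin of muscle, were intergenic and 171 to 211 kb away, with 5.14 to 6.19 in DP-R1lo and at most 2.32 in DP-R1hi. The cdh15 peaks form a pair on each side of the gene, each pair within 4 kb, and all of them went the same way.

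The pair of cdh7 peaks, 22.7 kb upstream and in intron 5 of 10, were both at the lowest value in DP-R1hi, with 5.18 and 5.44 in DP-R1lo. The only cdh4 peak, in intron 3 of 16 of this gene of R-cadherin, had 1.61 and 5.58.

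Cadherins with peaks of both directions were cdh2, cdh11 and cdh23. For cdh2, which encodes N-cadherin and is present in endothelium outside the adherens junctions, a peak in intron 2 of 15 had 3.37 in DP-R1hi and 6.21 in DP-R1lo. A cdh2 peak 368 kb upstream had 1.21 and 5.29, and one 194 kb downstream of the start site (chromosome 20, 18033995 to 18034936) had 7.08 and 4.38. The site in the cdh2 gene body was thus more open in DP-R1lo, and the site more open in DP-R1hi lay far beyond it. For cdh11, a cadherin of mesenchyme, 4 of 5 peaks were more open in DP-R1lo, and all lay 118 to 325 kb from the start site on chromosome 7. The farthest cdh11 peak (43122665 to 43123288) had 0.40 in DP-R1hi and 7.21 in DP-R1lo, a difference of -6.81, the second largest listed toward DP-R1lo. The peak in the other direction, 154 kb upstream of cdh11 (43602273 to 43602713), had 7.40 and 5.07. For cdh23, the cadherin of tip links in hair cells, a peak in exon 3 of 69, in the leader of the transcript, had 6.95 in DP-R1hi and 4.83 in DP-R1lo. A peak in intron 5 of 68 of cdh23 had 3.25 and 5.72.

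Protocadherins gave more peaks than any other class, 35 over 9 genes, and 26 of them were more open in DP-R1lo. They are cadherin-related proteins known mostly from neurons. The lowest DP-R1hi value was given at 18 of these 26 peaks (69.2%, beside 36.6% of all listed peaks of that direction), and the median distance from the start site was 134274 bp. For pcdh18b, 4 of 5 peaks were more open in DP-R1lo and all 4 were at the lowest value in DP-R1hi, with 4.93 to 5.78 in DP-R1lo. For pcdh18a, 5 of 6 were more open in DP-R1lo, 4 of them at the lowest value in DP-R1hi. Both duplicates also had 1 intergenic peak of the other direction over 100 kb away. That of pcdh18a (chromosome 1, 12477716 to 12478080) had 7.43 in DP-R1hi and the lowest value in DP-R1lo, a difference of 7.70, the second largest toward DP-R1hi. That of pcdh18b, 191 kb upstream, had 7.09 and 2.87. Peaks more open in DP-R1lo also lay that far out, 242 kb from the start site of pcdh18a and 106 kb from that of pcdh18b.

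All 6 pcdh19 peaks were more open in DP-R1lo, 4 of them at the lowest value in DP-R1hi, with 4.56 to 6.55 in DP-R1lo. Only 1 of the pcdh19 peaks lay in the gene, in intron 4 of 4, and 3 lay 577 to 623 kb away. For pcdh17, 4 of 5 peaks were more open in DP-R1lo. The pcdh17 peak in intron 1 of 3 (chromosome 11, 32398891 to 32399324) was at the lowest value in DP-R1hi and had 6.12 in DP-R1lo, whereas a peak 174 kb upstream had 6.92 in DP-R1hi and 1.93 in DP-R1lo. The pcdh17 site more open in DP-R1hi thus lay upstream of the start site, and those more open in DP-R1lo lay downstream of it.

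The pcdh10 duplicates leaned less to DP-R1lo. For pcdh10b, 3 of 5 peaks were more open in DP-R1hi, with 7.83, 5.68 and 5.71 in DP-R1hi and 6.08, 2.40 and 3.44 in DP-R1lo. For pcdh10a, a peak 173 kb away had 6.75 in DP-R1hi and 2.70 in DP-R1lo, and a peak 134 kb away had the lowest value and 5.87. No peak of pcdh10a or pcdh10b lay within 100 kb of a start site. On chromosome 1 the pcdh10a peaks (from 12210732) lie before those of pcdh18a (from 12477716), so that the same intergenic stretch is shared between the pair by distance alone. The genes of the tip link protein, pcdh15a and pcdh15b, had 1 peak each. The pcdh15a peak was intergenic, with 6.08 in DP-R1hi and 4.22 in DP-R1lo, and the pcdh15b peak lay in intron 2 of 34, with the lowest value and 5.08.

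The gene pcdh2g29 stands for the clustered protocadherins on chromosome 14, whose first exons are strung along the cluster. Its 4 peaks all lay in introns of other members (pcdh2g1, pcdh2g5 and pcdh2g13). The pair in intron 1 of 3 of pcdh2g1 had 6.94 and the lowest value in DP-R1hi, against 8.52 and 5.13 in DP-R1lo. The pcdh2g13 peak had 0.93 and 6.02, and the pcdh2g5 peak had 8.75 in DP-R1hi and 7.94 in DP-R1lo, a difference of only 0.81.

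**Figure D4:**
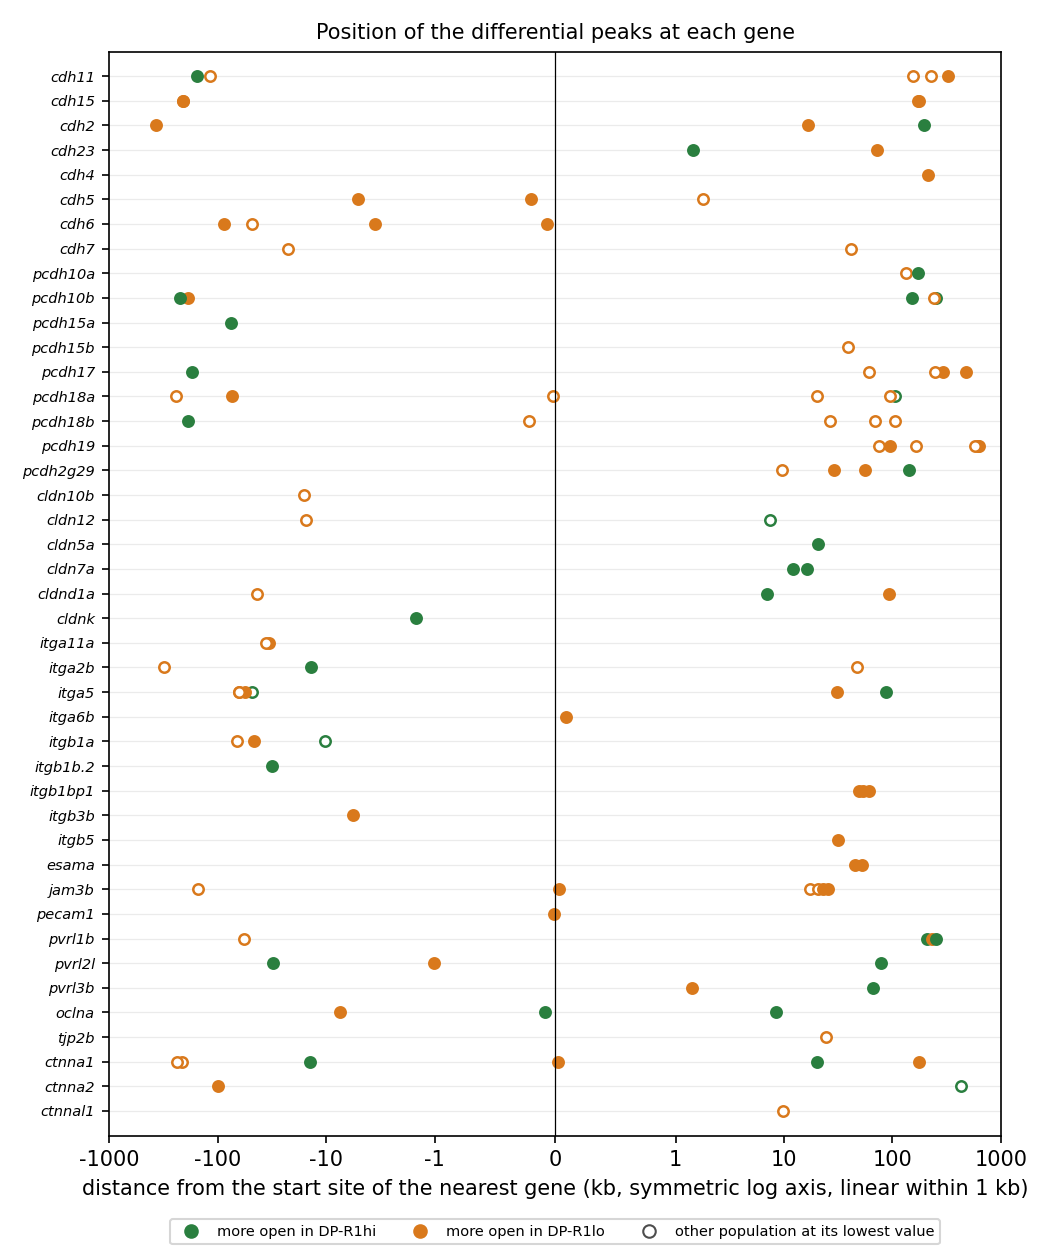
Each point is 1 of the 121 peaks, placed by its distance from the start site it is named for (x axis, kb, negative upstream, logarithmic beyond 1 kb). Each gene has 1 line. Green is more open in DP-R1hi, orange more open in DP-R1lo, and open circles mark the 48 peaks at which the other population was at its lowest value. Points of 1 gene at similar distances overlap.

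Under integrin symbols, 16 of 21 peaks were more open in DP-R1lo, beside 59.2% of all listed peaks. Of the 16, 3 were named for itgb1bp1, which is not an integrin, and lay in introns of asap2a. A further 2 of the 16, named for itgb1a, lay in introns of nrp1a. The largest difference of all adhesion peaks toward DP-R1hi was nevertheless at itga5. This gene encodes the alpha chain of the fibronectin receptor, which pairs with a beta chain of the itgb1 family. The itga5 peak 48.8 kb upstream (chromosome 23, 33680161 to 33680623) had 7.79 in DP-R1hi (221 normalized reads) and the lowest value in DP-R1lo, a difference of 8.06. Within 16 kb of it, 3 peaks at 56.2, 63.6 and 64.1 kb upstream of itga5 were more open in DP-R1lo, with 4.96, 4.45 and 5.59 there and 1.35 or the lowest value in DP-R1hi. The upstream region of itga5 thus held neighbouring sites open in opposite populations. Inside the gene, a peak in intron 1 of 29 of itga5 had 4.92 in DP-R1hi and 6.47 in DP-R1lo, and a peak in intron 21 of 29 had 7.15 and 5.86.

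For itga2b, the alpha chain of the platelet integrin and an early marker of blood progenitors in zebrafish, the peak nearest to the gene was more open in DP-R1hi. It lay 13.7 kb upstream on chromosome 3 (21265246 to 21265875), with 6.93 in DP-R1hi (122 normalized reads) and 4.92 in DP-R1lo, a difference of 2.01. The other itga2b peaks, 47056 and 313452 bp away, were at the lowest value in DP-R1hi, with 5.82 and 4.34 in DP-R1lo. The only peak of itgb3b, whose product pairs with that of itga2b, went the other way: it lay 5623 bp upstream on chromosome 12 (26338997 to 26339246), with 0.79 in DP-R1hi and 4.64 in DP-R1lo. Peaks of the 2 chains of the platelet integrin thus did not share a direction at the site nearest to each gene.

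Both itga11a peaks, 33.4 and 35.8 kb upstream of this gene of a collagen receptor chain, were more open in DP-R1lo. The nearer had 5.81 and 7.68 and the farther the lowest value and 5.66. The itgb5 peak, in intron 11 of 15, had 2.43 in DP-R1hi and 6.42 in DP-R1lo. For itgb1a, which encodes a beta chain shared by many integrins, the nearest peak, 10.2 kb upstream (chromosome 24, 1145750 to 1146157), had 5.29 in DP-R1hi and the lowest value in DP-R1lo. The other itgb1a peaks, more open in DP-R1lo, lay 46.1 and 67.3 kb upstream in introns 10 and 7 of nrp1a, a receptor of VEGF and semaphorins, with 3.03 and the lowest value in DP-R1hi and 6.14 and 4.40 in DP-R1lo. A related beta chain gene, itgb1b.2, had 1 peak, 31.6 kb upstream, with 6.72 in DP-R1hi and 5.27 in DP-R1lo. The peaks of itgb1a and itgb1b.2 were thus evenly split, with both intergenic ones on the DP-R1hi side and both in nrp1a introns on the DP-R1lo side. In a like manner, the 3 peaks named for itgb1bp1 lay 49.1 to 61.4 kb away in introns 4, 5 and 9 of asap2a. They had 2.94 to 4.62 in DP-R1hi and 6.27 to 7.33 in DP-R1lo.

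Nectins are immunoglobulin proteins that start cell contacts before cadherins, and the files give them under their older symbols. For pvrl1b (now nectin1b, chromosome 18), a peak 57.3 kb upstream (42868174 to 42868631) was at the lowest value in DP-R1hi and had 6.78 in DP-R1lo, a difference of -6.92, the largest of all adhesion peaks toward DP-R1lo. Peaks in introns 4 and 6 of 7 of pvrl1b went the other way, with 4.63 and 6.13 in DP-R1hi and 0.33 and 1.07 in DP-R1lo. Between them in intron 4 lay a strongly open pvrl1b peak with 7.60 and 8.41, the smallest difference toward DP-R1lo. For pvrl2l, the peak 1015 bp upstream had 2.92 in DP-R1hi and 5.62 in DP-R1lo, whereas those 31.3 kb upstream and in intron 1 of 5 had 0.33 and 3.22 in DP-R1lo and were higher by 5.30 and 3.58 in DP-R1hi. For pvrl3b (now nectin3b), a peak in exon 2 of 7, ahead of the coding part, had 5.33 and 6.95, and an intergenic peak 66.7 kb away 6.03 and 3.70. At pvrl2l and pvrl3b the peak next to the start site was thus more open in DP-R1lo and the distant ones in DP-R1hi.

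The remaining claudins and catenins had few peaks. Both peaks of cldn7a, a claudin of epithelia, were more open in DP-R1hi, with 5.41 and 8.77 in DP-R1hi and 2.53 and 7.96 in DP-R1lo. The peak named for cldnk, a claudin of myelinating cells in zebrafish, lay in the last exon of btr02, with 7.03 and 5.68. For cldn12, a peak 7479 bp downstream of the start site had 4.65 in DP-R1hi and the lowest value in DP-R1lo, and a peak 15.5 kb upstream the lowest value and 5.65. The single cldn10b peak had the lowest value in DP-R1hi and 4.17 in DP-R1lo, the lowest DP-R1lo level of all adhesion peaks of that direction. For cldnd1a, the peak nearest to the start site had 7.69 in DP-R1hi and 6.42 in DP-R1lo, and the others had 1.91 and the lowest value in DP-R1hi and 6.46 and 5.57 in DP-R1lo. For ctnna2, the alpha-catenin of neurons, a peak in intron 5 of 15 (chromosome 1, 42003565 to 42003921) had 6.43 in DP-R1hi and the lowest value in DP-R1lo, a difference of 6.70. An intergenic ctnna2 peak 101 kb upstream had 4.63 and 7.31. The ctnnal1 peak, in intron 1 of 18, was at the lowest value in DP-R1hi and had 4.82 in DP-R1lo.

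The distance of adhesion peaks from start sites differed by class. Over all 121 adhesion peaks the median distance was 56229 bp, beside 31017 bp over all listed peaks. By class it ran from 7963 bp for scaffolds and occludin and 15731 bp for claudins to 102667.5 bp for cadherins and 134274 bp for protocadherins. It was 20263 bp at the endothelial junction genes. With only the closest peak of each gene it was 15925 bp, beside 15488 bp over all genes treated in the same way. Of the 121, 57 lay within 50 kb, beside 63.9% of all listed peaks. Intergenic peaks made up 60.3% (73 peaks, beside 62.8%), intron peaks 29.8% (36 peaks, beside 24.8%) and promoter peaks 7.44% (beside 5.35%), while 1 peak was annotated as exon (0.826%, beside 4.94%) and 2, in exons of cdh23 and pvrl3b, as 5′ UTR (1.65%, beside 0.56%). Of 12 peaks in intron 1 of the gene they are named for, 11 were more open in DP-R1lo, beside 58.3% of all 746 such listed peaks. The genes jam3b and esama gave 6 of the 11. Of the 39 peaks inside a transcript, 10 lay in a gene other than the one they are named for. Neighbouring adhesion peaks of 1 gene within 10 kb of each other shared a direction in 17 of 19 pairs (89.5%), beside 81.7% over all listed peaks. At any distance 45 of 78 pairs did (57.7%, beside 68.4%). The 2 close pairs of opposite direction were at oclna and itga5.

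Other junction and adhesion genes, from a list of 151 names outside the symbols above, had a similar split. Of these, 40 had listed peaks, with 30 more open in DP-R1hi (30.6%) and 68 in DP-R1lo (69.4%), beside 59.2% on the DP-R1lo side over all listed peaks. The list also held ctnnbl1 and esrp1, which act in splicing. All peaks were more open in DP-R1lo at 20 genes (50%, beside 45.9% of all genes with a listed peak), in DP-R1hi at 8 (20%, beside 34.8%), and 12 had peaks of both directions. Genes with the most peaks on the DP-R1lo side were parvab, a parvin of focal adhesions (7 of 8 peaks), cxadr, a tight junction receptor (6 of 7), and bcar1, a focal adhesion adaptor (5 of 5). The bcar1 promoter on chromosome 18 had 6.63 in DP-R1hi and 8.90 in DP-R1lo. The connexin gene cx39.4 and alcama, a gene of an immunoglobulin adhesion protein, had 4 of 4 peaks on that side.

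Among the 8 genes with peaks in the DP-R1hi list only was fermt3b. It encodes kindlin-3, an activator of integrins known from blood cells in mammals. This gene, like the others named here from the list, was singled out after its values were seen. Its promoter on chromosome 14 (46982424 to 46983043) had 7.50 in DP-R1hi and 6.06 in DP-R1lo, and the peaks in its intron 1 had 7.55 and 6.39 in DP-R1hi and 5.38 and 4.12 in DP-R1lo. The 3 peaks of fermt2, which encodes the kindlin of most other tissues, all lay in intron 2 and were all more open in DP-R1lo, with 2.90 or the lowest value in DP-R1hi and 5.01 to 6.38 in DP-R1lo. The promoter of parvg, the parvin of blood cells in mammals, had 6.33 in DP-R1hi and 4.35 in DP-R1lo, and both peaks of podxl, a sialomucin of the vessel lumen, were more open in DP-R1hi (5.34 and 6.46, against 1.29 and 2.95). A second parvg peak, 74.8 kb away, was more open in DP-R1lo, with 6.51 and 8.14. All listed peaks of dsg2.1, vcla, ptprja, parvb, pxna and actn4 were also more open in DP-R1hi. The largest listed difference of a partner gene toward DP-R1hi, 7.05, was at krit1, where DP-R1lo was at its lowest value. The gene krit1 had 2 peaks of that direction and 1 of the other. The list also held the kindlin genes fermt1 and fermt3a, which had no listed peak. The listed peaks of fermt3b and fermt2 stood on opposite sides, a contrast picked from 40 genes after their values were seen.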

How the data were processed

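Peaks had been made by the authors from paired-end reads: trimming with Trimmomatic 0.32, alignment to GRCz10 with BWA 0.7.12, peak calling with genomic DNA as control, testing with edgeR in DiffBind, annotation with HOMER and a log2 fold change filter of 0.7. The deposited values are the authors' group means of normalized reads on a log2 scale. The lists have no header, and both columns of means were inferred. The deposited overall mean equalled the log2 of their equally weighted linear mean within 0.02 in all 9466 peaks. The deposited fold changes were not used. The other value used is the deposited distance to the start site, in bp, by HOMER.

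Members were matched by deposited symbol, and 117 of 121 had a RefSeq accession in the GRCz12tu gene table, used for names only. Members and lists were chosen with earlier results of these data known. Named genes are those with at least 3 peaks, a promoter peak, peaks of both directions, 1 of the 5 largest differences in either direction or a role in endothelial junctions, and integrins within 10 kb. Genes outside this rule are given for completeness. The partner genes named were chosen after their values were seen. Shares and medians are set beside those of all listed peaks, with no test. The summaries were tested on simulated data. No genome sequence was used, so that motifs were not searched. Analyses used Python 3.11.15, numpy 2.4.6, scipy 1.17.1 and matplotlib 3.10.9.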

Additional observations from a re-analysis of the deposited data

How the results depend on the processing

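No paired analysis was possible because only means of each population were deposited, and fits without each replicate were not run for the same reason. The share of adhesion peaks more open in DP-R1hi (27.3%) stayed between 22.4% and 28.7% under all alternatives but 1, and was 38.4% without peaks at a lowest value. With a difference of at least 2 it was 22.4%, beside 35.6% of all listed peaks. Within 50 kb it was 28.1%, beside 41.9%, and within 10 kb 26.1%, beside 43%. With 1 peak per gene it was 27.9%, beside 44.4%, and without peaks at a lowest value the share of all listed peaks was 46.9%. Without peaks at a lowest value the median difference toward DP-R1lo was 2.91, beside 2.83 over all listed peaks treated in the same way. Within 10 kb of the start site the median differences were 1.83 toward DP-R1hi and 3.85 toward DP-R1lo, and 26.1% of peaks were at a lowest value. With an absolute difference of at least 2 this share was 49%, which the filter itself favours. The median distance was 15925 bp within 50 kb, 1458 bp within 10 kb and 15925 bp with 1 peak per gene, all shortened by construction. Over all listed peaks the same settings gave 14611, 3098.5 and 15488 bp. By current gene names 4 claudin peaks were added, all more open in DP-R1lo, and the claudins then had 6 peaks more open in DP-R1hi and 8 in DP-R1lo. Without ctnna1, itga5, jam3b, pcdh18a or pcdh19, each with 6 peaks, the share was 27% to 28.7%. For the partner genes the share ranged from 27.6% to 35.5%, under alternatives chosen after the values were seen. The 27.6% was for a difference of at least 2, beside 35.6% of all listed peaks. The 35.5% was for peaks within 10 kb, beside 43%. The cause of these shifts was not tested. The motif search in promoters was not run. Of 1027 counts by class and gene under the alternatives, 797 stayed within 1.5 times and 229 of the other 230 were lower, with fewer peaks kept.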
